A study of Sus scrofa with 60 samples.

Results

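The data described here are the liver transcriptomes of 15 pig fetuses taken at 94 days post conceptionem (dpc), and they are described for how much the fetuses differed from each other. The 15 animals were chosen by their stage label alone, out of 60 animals in the series. All 60 were German Landrace offspring of gilts that received the gestational adequate protein (AP) diet, and the later stages, used here only to set spreads side by side, are 1, 28 and 188 days post natum (dpn) with 15, 14 and 16 animals. One Affymetrix GeneChip Porcine Genome array was run per animal, on which several short oligonucleotides, together a probe set, measure a transcript. Levels are given as log2(intensity + 16), so that a difference of 1 is a doubling of intensity + 16, and the standard deviation (SD) is taken over animals on that scale. By the study's methods the fetuses were delivered by Caesarean section from anaesthetised sows, and the lightest and the heaviest fetus of a litter were taken. Litter, sex and weight are not in the labels, so fetuses that shared a mother were treated as independent and the p-values below may be too small.

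The fetal liver is at once a metabolic organ and a site of blood cell formation. Hepatocytes already secrete plasma proteins such as albumin and alpha-fetoprotein, while islands of red cell precursors and developing granulocytes lie between them. Drug-metabolising enzymes and the enzymes of gluconeogenesis are switched on around birth, at a time that can differ between animals. Immediate early genes, of which FOS is the best known, are transcribed within minutes after hormones, handling or injury act on a cell.

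The liver label was checked against markers. The 8 hepatocyte markers all had means above the array median, which averaged 7.54, and so did the 4 red cell precursor, 4 neutrophil and 4 endothelial markers that could be read. None of the 3 lymphocyte, 1 pancreas and 3 adrenal markers did. The wider lists were less clear-cut. Above the median were 2 of 16 lymphocyte genes on the array, CXCR4 (8.92) and CCL5 (8.61). So were 3 of 15 pancreas and gut genes, AMY2 (13.93), ANPEP (12.38) and VIL1 (9.96), and 1 of 6 kidney and adrenal genes, HSD3B1 (8.32). Of the skeletal muscle markers, TNNI2 had a mean of 11.82, whereas TNNT3 at 5.09 and MYLPF at 4.91 were below the highest mean of the 17 Tag control probe sets, 5.86. On the wider muscle list 4 of 22 genes on the array were above the array median, TNNI2, TCAP (9.43), CKM (8.69) and PYGM (7.67). Of 3 stellate cell markers 1 was above it, COL3A1 (7.76), whereas DES (7.45) and LUM (6.28) were not. Pairwise correlations between the 15 arrays lay between 0.929 and 0.951, the array medians between 160 and 182, and the log2 ratio between the 3' and 5' actin controls, a measure of RNA integrity, between 1.54 and 2.84. In bulk tissue, fewer cells of a type and less RNA per cell cannot be told apart.

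Many of the brightest genes of the fetal liver, counting probe sets with a symbol, encode plasma proteins or parts of the protein synthesis machinery. Of the 20 brightest probe sets, 10 carry no symbol and are not described. Signals of different probe sets are not on a common scale, so these are named without an order. Among the 20 genes with the highest means, APOA1 and APOC3 (apolipoproteins), ALB (albumin), AFP (alpha-fetoprotein, the fetal counterpart of albumin), TF (transferrin), GC (the vitamin D carrier), SERPINA1 (a protease inhibitor) and ORM1 (an acute phase glycoprotein) are secreted by hepatocytes. RPLP0, RPL5, RPL31, RPS2, RPS20 and RPS27A encode ribosomal proteins, and EF1ALPHA an elongation factor. The remaining genes were OAZ1, B2M, TPT1, ZC3H10 and LOC396685. The means of the 20 genes lay between 15.78 and 16.25 and their SDs between 0.15 and 0.32, on both sides of the median SD of all genes, 0.24. ALB had a lowest value of 15.55, a median of 15.83 and a highest of 16.34, and AFP had 15.34, 15.74 and 16.28. No fetus stood apart in either gene. AFP had a mean of 15.84 at 94 dpc against 5.06 at 188 dpn, which is below the highest mean of the Tag controls on the fetal arrays, 5.86.

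Over the 11737 probe sets with a mean above the array median, the SD among fetuses had a median of 0.26, with 5th and 95th percentiles of 0.14 and 0.52. Only 56 probe sets (0.477%) had an SD of at least 1, and 24 of them carry a gene symbol. The 100 probe sets with the largest SD, 42 of them with a symbol, were taken as the most variable, and the border runs through a continuous range, from an SD of 0.8335 for the last one inside to 0.8312 for CYP2C91, the first one outside. Of these 100, fetus 13 had the highest value in 19 and fetus 11 in 14, whereas fetus 3 had the lowest value in 12. No single axis dominated the variation of all 11737 probe sets, since the first 3 principal components held 15.55%, 10.7% and 10.1% of the variance.

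Gene lists differed in how many variable genes they held. Over the 4915 genes with a usable probe set the median SD was 0.24, and an SD of at least 0.49 marks the top 5% of genes. Of 22 immediate early genes 14 were in that top share, with a median SD of 0.68. The neutrophil granule list had 7 of 11 genes there, the interferon response list 8 of 19, the erythroid list 6 of 16, the xenobiotic metabolism list 6 of 18 and the glucocorticoid and gluconeogenesis list 6 of 22. No gene reached it among 22 heat shock and folding genes, 20 hypoxia and glycolysis genes, 15 amino acid response genes and 13 macrophage genes. Hepatocyte plasma proteins had a median SD of 0.27 with 4 of 40 genes in the top share, and cholesterol synthesis genes had 0.24 with 1 of 13, INSIG1 at 0.59. These counts describe the fetuses and were not tested, because the same values define the top share.

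**Figure D1:**
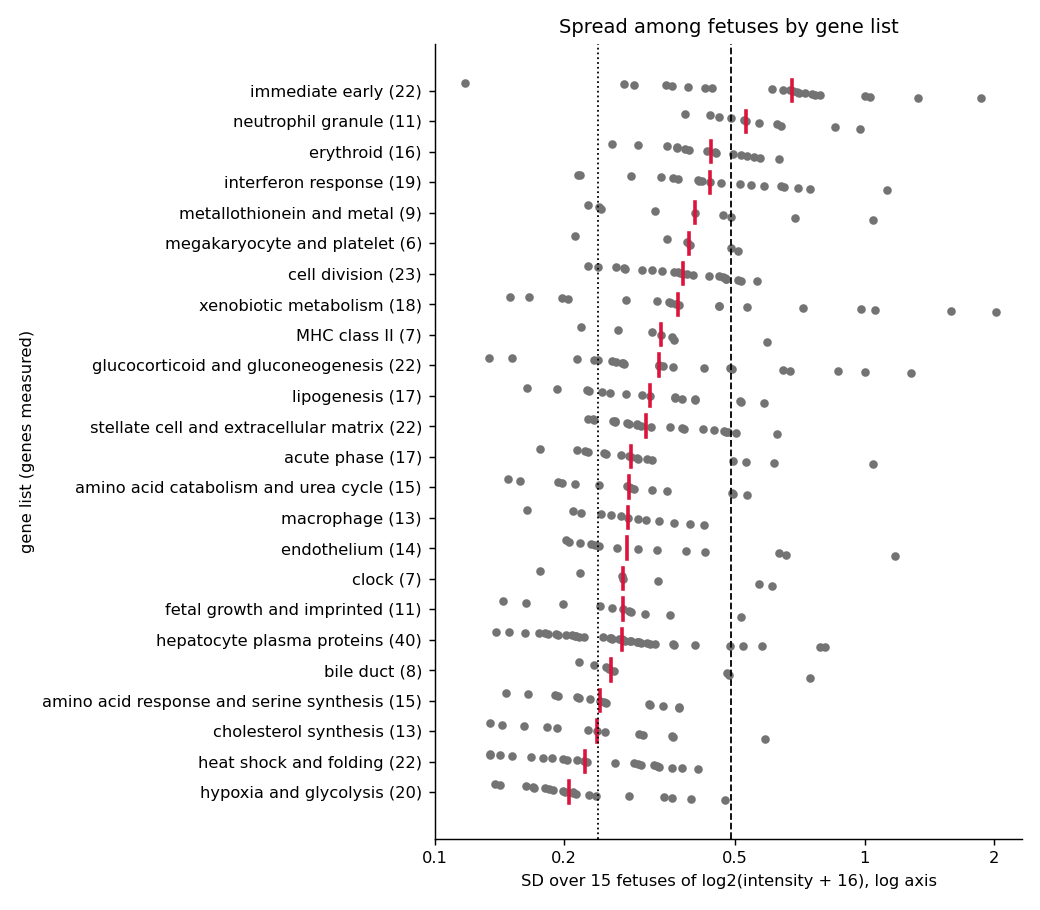
Each grey point is a gene, placed on a logarithmic axis by its SD over the 15 fetuses, for the 24 gene lists with at least 6 measured genes (number in parentheses). Red bars are list medians, the dotted line is the median of all genes (0.24) and the dashed line the border of the top 5% (0.49); the immediate early list lies farthest to the right, with a median of 0.68.

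Of the 30 genes with the largest SD, 8 fell into 1 group that moved together. When the 100 probe sets were clustered by correlation over the fetuses, 33 of them fell into 6 groups of at least 4. The first held 13 probe sets, and its named genes were FOS, GADD45G, DUSP1, RGS2, CYR61, CREM, CEBPB and PCK1. FOS encodes a subunit of the AP-1 transcription factor, DUSP1 a phosphatase that shuts off MAP kinases, and RGS2 a regulator of G protein signalling. CREM is a transcription factor of the cAMP response, CEBPB a hepatic transcription factor, and PCK1 the rate-limiting enzyme of gluconeogenesis. Correlations between members ranged from 0.48 to 0.98 with a median of 0.81.

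FOS had a lowest value of 7.84, a median of 9.93 and a highest of 13.84, a 64.2-fold range (SD 1.87). The 4 fetuses above 12 were fetuses 11 (13.84), 13 (13.40), 15 (12.67) and 9 (12.15), and fetuses 5, 6 and 3 were lowest. PCK1 ranged from 9.26 over a median of 11.99 to 14.23 (SD 1.28). It was highest in fetuses 11 and 13 and lowest in fetuses 14 and 3. GADD45G, a stress-inducible growth arrest gene, ranged from 8.66 over 10.88 to 12.94. DUSP1 ranged from 10.56 over 11.98 to 13.74, and CEBPB from 10.62 over 11.88 to 13.32. In each of these 3 genes the 4 highest values belonged to fetuses 9, 11, 13 and 15, the same 4 as for FOS. CREM ranged from 10.45 over 11.39 to 13.68, with fetus 4 above fetus 15. CYR61, a matricellular protein gene, ranged from 6.68 over 8.79 to 10.73 and fetus 14 had its lowest value. The SDs of these genes after birth were smaller: FOS had 0.50, 0.55 and 0.77 at 1, 28 and 188 dpn, PCK1 had 0.34, 0.33 and 0.23, and DUSP1 had 0.37, 0.39 and 0.34. Since these genes were picked for a large fetal SD, that contrast is a description only.

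**Figure D2:**
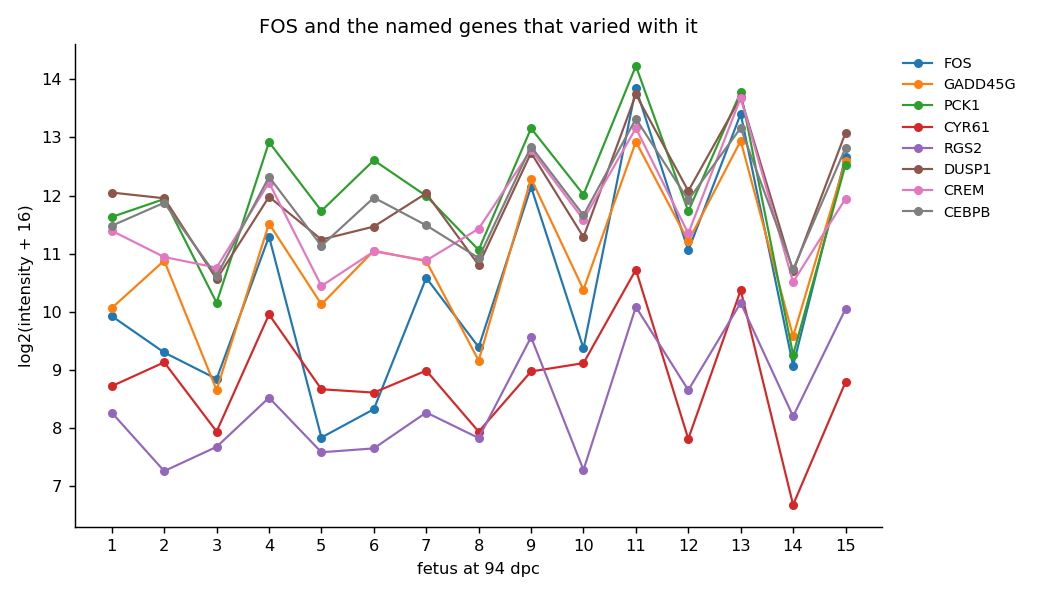
Log2(intensity + 16) of 8 named genes in each of the 15 fetuses at 94 dpc, with lines joining the values of a gene across fetuses, which have no order. All 8 genes have their highest value in fetus 11 or 13; FOS runs from 7.84 in fetus 5 to 13.84 in fetus 11.

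To ask which transcripts varied together beyond the most variable ones, each list was given an index gene, its first measured member, and every probe set was regressed on that gene over the 15 fetuses with limma. With FOS as the index, 36 probe sets (0.307% of 11736) varied with it positively and 1 (0.00852%) negatively at an adjusted p below 0.05. Of the 21 other immediate early genes 11 were among them, all positive, and the median r of the list was 0.78 against -0.01 over all genes. The largest correlations were those of RGS2 (r = 0.94, rho = 0.90), the kinase SGK1 (r = 0.93, rho = 0.87), DUSP1 (r = 0.91, rho = 0.88), the antiproliferative factor BTG2 (r = 0.90, rho = 0.86), ZFP36, which destabilises mRNAs (r = 0.89, rho = 0.84), and the small GTPase RHOU (r = 0.89, rho = 0.79). JUN, the AP-1 partner of FOS, had r = 0.87, and HES1, ATF3, GADD45G, RHOB, MYC and GADD45B had r between 0.78 and 0.87. Permutation p-values of r, two-sided and adjusted over the 177 named pairs of all index genes, were at most 0.0010 for these 13 genes. The pairs were named mainly for a limma call, a large r or a large SD in the same fetuses. Small p-values were therefore built into the choice and are not separate support. EGR1, another immediate early transcription factor, was not called (r = 0.35, limma adjusted p = 0.94), although it ranged from 10.11 over 11.74 to 12.16. CYR61 was not called either (r = 0.64, limma adjusted p = 0.54).

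The relation to FOS weakened without the 2 fetuses farthest from its median, 11 and 13, and kept its sign. Only 2 probe sets were then called by limma, while the median r of the list was 0.66 against -0.03 over all genes. The r of RGS2 was then 0.89, that of SGK1 0.89 and that of ATF3, the lowest among the 13 genes, 0.65.

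PCK1 as the index of the glucocorticoid and gluconeogenesis list called 31 probe sets positively (0.264%) and 2 negatively (0.017%). These included only 3 of the 21 other list members, CEBPB (r = 0.92, rho = 0.93), DUSP1 (r = 0.86, rho = 0.74) and SGK1 (r = 0.77, rho = 0.76), of which the latter genes are also immediate early genes. The other called genes with the largest r were CYR61 (0.91), GADD45G (0.88), TSKU (0.85) and the tight junction gene CLDN14 (0.85). Genes of the same pathway without a call included TAT, a tyrosine aminotransferase induced by glucocorticoids (r = 0.33, limma adjusted p = 1.0), PER1, a clock gene that glucocorticoids also induce (r = 0.66, rho = 0.82, limma adjusted p = 0.58), and PDK4 (r = -0.41). The list as a whole had a median r of 0.33 with 16 of 21 genes above 0. Without fetuses 11 and 14, 9 probe sets were called and the r of CEBPB was 0.92.

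**Figure D3:**
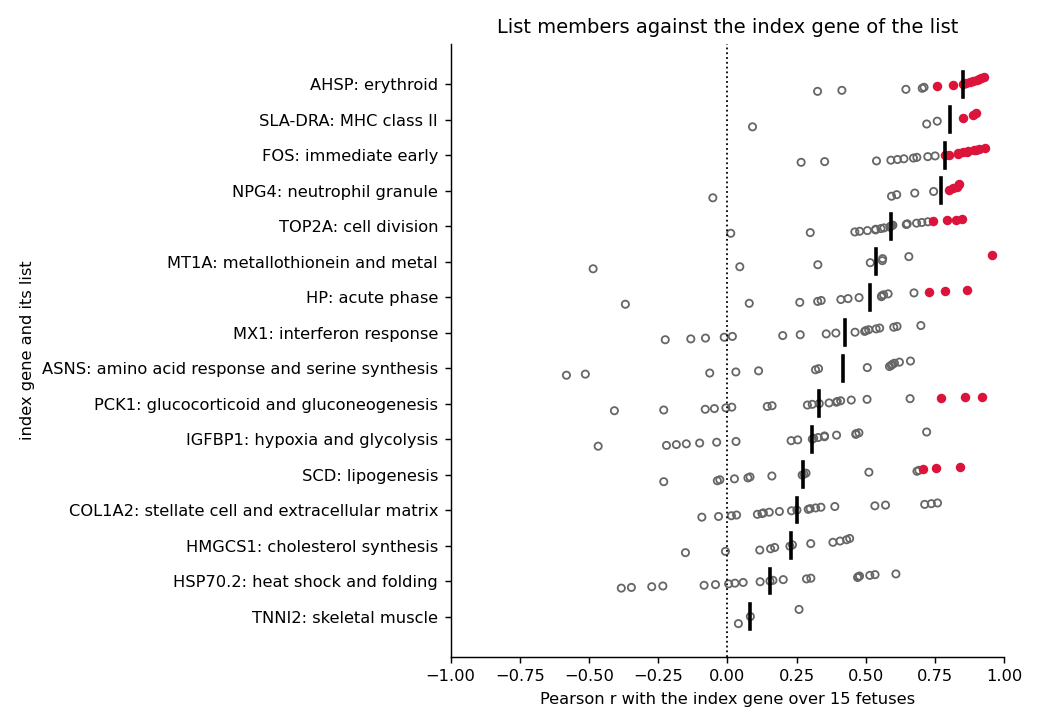
Pearson r of each measured list member with the index gene of its list over the 15 fetuses, by list; filled red points passed limma at an adjusted p below 0.05, open points did not, and black bars are list medians. The medians are 0.85 for the erythroid, 0.80 for the MHC class II, 0.78 for the immediate early and 0.77 for the neutrophil list, and 0.08 for the 3 skeletal muscle genes.

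Red cell precursor genes varied together as well, within a narrower range. AHSP, the chaperone of free alpha-globin, ranged from 11.42 over a median of 13.01 to 13.88 (SD 0.53). The low end was fetus 15 alone, since the other fetuses had 12.74 or more, and fetus 13 was highest. With AHSP as the index 112 probe sets (0.954%) were called positively and 9 (0.0767%) negatively by limma, and 10 of the 15 other erythroid genes were among the positive ones. The median r of the list was 0.85 against -0.01 over all genes. Called members included the blood group gene RHCE (r = 0.93, rho = 0.78), the mitochondrial iron importer SLC25A37 (r = 0.92, rho = 0.68), UROD (0.91), ALAS2 (0.90) and FECH (0.85) of haem synthesis, the globin HBM (0.89), the transcription factor KLF1 (0.86) and the erythropoietin receptor EPOR (0.82). The water channel AQP1 (r = 0.94, rho = 0.76), the cell division gene UBE2C (0.93) and the antioxidant enzyme PRDX2 (0.93), none of them on the list, were called too. HBB, the beta-globin gene, had r = 0.41 and was not called (limma adjusted p = 0.78), nor was the transferrin receptor TFRC (r = 0.64). Permutation p-values of r were at most 0.0017 after adjustment for the named genes that were called. These genes were picked by the call itself, so the p-values are not separate support.

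Fetuses 13 and 15 carried much of this. Without them 2 probe sets were called, and the median r of the list was 0.65 against -0.02 over all genes. HBM then had r = 0.86 and RHCE 0.80. The 3' to 5' actin ratio had r = 0.59 with AHSP (adjusted permutation p = 0.40, r = 0.80 without the 2 farthest arrays) and rho = 0.81 (adjusted permutation p = 0.020). With that ratio as a covariate 50 probe sets were called instead of 121. The part of RNA quality in the result was not tested further.

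Neutrophil granule genes formed a smaller set. NPG4, a protegrin and thus an antimicrobial peptide, ranged from 13.10 over 14.11 to 14.71 (SD 0.53). Fetuses 14, 15, 12 and 1 were low and fetuses 5 and 13 were high. As the index it called 5 probe sets positively (0.0426%) and 1 negatively (0.00852%) with limma, and 4 of the 5 were list genes, namely the protease PRTN3 (r = 0.84, rho = 0.83), S100A9 (r = 0.83, rho = 0.73), S100A12 (r = 0.82, rho = 0.83) and lactoferrin, LTF (r = 0.80, rho = 0.71). The median r of the 10 other list genes was 0.77 against 0.02 over all genes. The negative gene was MRC1, the mannose receptor of macrophages and sinusoidal cells (r = -0.80, rho = -0.77). MRC1 ranged from 10.76 over 11.18 to 12.07. No probe set was called without fetuses 14 and 15 or with the array median as a covariate, and without these fetuses the list median r was 0.66. Without fetus 7, whose array was least like the others, 3 were called. The r of NPG4 with the array median was 0.58 (rho = 0.49, adjusted permutation p = 0.40). Adjusted permutation p-values of the 5 named genes were at most 0.00092, which is not separate support, since the call picked these genes.

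**Figure D4:**
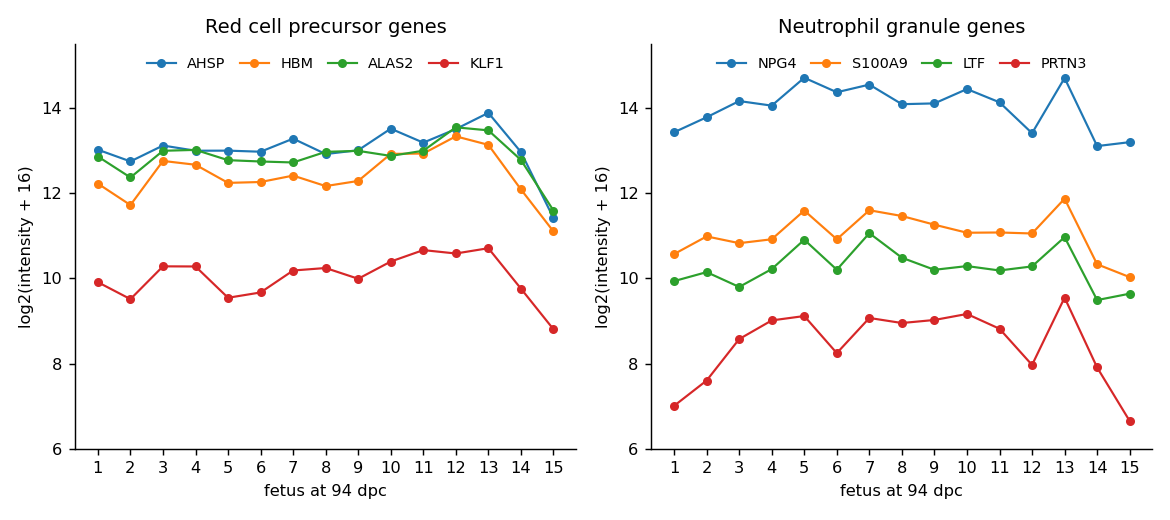
Log2(intensity + 16) of 4 red cell precursor genes (left) and 4 neutrophil granule genes (right) in each of the 15 fetuses at 94 dpc, with lines joining the values of a gene across fetuses, which have no order. Fetus 15 is lowest in all 4 red cell precursor genes (AHSP 11.42), and fetus 13 is highest or second highest in the 4 neutrophil genes shown.

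PR39, a proline-rich antimicrobial peptide of neutrophils, was among the genes with the largest SD but its probe sets disagreed. The brighter one ranged from 8.79 over 10.44 to 12.48 (SD 0.97), with fetus 13 highest and fetus 15 lowest, and clustered with PRTN3. The dimmer one ranged from 4.83 over 8.55 to 10.48 (SD 1.92) and ran against it (r = -0.71). Similar gaps were seen in other genes with a second probe set among the 100. TAF1D had an SD of 2.32 in the dimmer and 0.25 in the brighter probe set, ATP2A2 1.25 and 0.19, ACOX2 1.22 and 0.24, DDX39B 1.17 and 0.20, and RACK1 1.02 and 0.25. Levels of these genes are therefore uncertain. By contrast both GSTA1 probe sets varied alike (r = 0.99).

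Drug-metabolising enzymes included the genes with the largest and the third largest SD, GSTA1 and CYP2E1, with FOS between them. GSTA1, a glutathione S-transferase, had an SD of 2.02 and ranged from 7.94 over 12.06 to 13.86, a 60.3-fold range. Fetuses 5, 6 and 7 had values from 13.81 to 13.86, and fetuses 14, 9, 2 and 1 lay between 7.94 and 9.19, with the remaining fetuses spread between them. CYP2E1, the cytochrome P450 that oxidises ethanol and ketone bodies, ranged from 6.82 over 8.33 to 12.19 (SD 1.59). It was highest in fetus 8 and between 10.2 and 11.0 in fetuses 1, 3, 6 and 9, whereas the remaining fetuses were at or below 8.6. CYP2D25, which hydroxylates vitamin D, ranged from 8.18 over 10.80 to 12.11 and was lowest in fetuses 12 and 4. AHR, the receptor for dioxin-like compounds, ranged from 6.43 over 8.77 to 9.64, and SULT2A1, a steroid sulfotransferase, from 7.94 over 8.99 to 10.40. Other members were narrow, such as ALDH2 with an SD of 0.15, CYP27A1 with 0.17 and ALDH1A1 with 0.20.

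The wide members did not move as 1 group. With GSTA1 as a further index gene, added after its values were seen, limma called 1 probe set (0.00852%), an unnamed one. An unadjusted p below 0.05 was reached by 677 of 11735 probe sets. That is little above the share of 0.05 that passes on average without any relation. CYP2E1 had r = -0.13 with GSTA1, CYP2D25 -0.01 and AHR -0.24, and the median r of the 17 other list genes was 0.27 against 0.02 over all genes. GSTA4 had r = 0.68 (rho = 0.74, limma adjusted p = 0.65).

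Of the 10 probe sets with the largest SD, 7 carry no symbol in the annotation used here but are named by the study in a list of transcripts associated with sex, which the study chose on samples that include these fetuses. The values of these 7 fell into separate clusters, so no correlation is given. The probe set the study names EIF2S3, a translation initiation factor, had the largest SD of all (3.48), with values from 10.82 to 11.83 in fetuses 4, 7, 8, 10, 11, 14 and 15 and from 4.07 to 5.98 in the other 8. Those named DDX3X, an RNA helicase, and TMSL3, a thymosin, were high in the same 7 fetuses, from 10.09 to 11.07 and from 11.93 to 12.23. XIST, the non-coding RNA that silences an X chromosome, was at 10.75 or more in the other 8 fetuses and between 4.73 and 6.82 in these 7. The 3 probe sets named TSIX, the antisense partner of XIST, had values of 9.85 or more in the same 8 fetuses. A further probe set of the study's list, with a mean below the array median, is EIF1AX by the study and EIF1AY in the annotation. It had 9.51 to 10.31 in the 7 fetuses and 4.16 to 5.50 in the other 8. Which copy of a gene, on the X or the Y chromosome, the probe sets named EIF2S3 and DDX3X measure was not tested. The labels give no sex, and the clusters were not used as groups.

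Other wide genes differed in which fetuses were high or low. FCN2, a lectin of the complement system, ranged from 8.09 over 11.65 to 13.15 with fetus 9 lowest, and FBP2, a muscle-type fructose bisphosphatase, had 7.96 and 8.08 in fetuses 9 and 8 against 10.55 or more in all others. Both clustered with 2 unnamed probe sets, and by Spearman's rho 0 of these 4 were in any such group. HAMP, the iron hormone hepcidin, ranged from 10.34 over 12.10 to 13.86 (SD 1.04), with fetuses 6, 5, 7 and 15 at 13.02 or more. MX1, an interferon-induced antiviral protein, ranged from 5.41 over 7.66 to 9.34 (SD 1.12), and was high in fetuses 2 and 15 and below the highest Tag control in fetuses 7 and 6. HNRNPL, an RNA-binding protein, had an SD of 1.46 and SLC2A5, the fructose transporter, one of 1.05. TNNI2, a troponin, ranged from 10.09 over 11.84 to 13.04, and its correlations with the other 3 measured muscle genes were between 0.04 and 0.26.

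MHC class II genes, which present antigen, varied together over a narrow range. SLA-DRA ranged from 10.12 over 10.86 to 11.27, with fetuses 14, 3 and 1 low and fetuses 7 and 5 high. As the index it called 8 probe sets positively (0.0682%) and 1 negatively (0.00852%) with limma, among them 3 of the 6 other list genes, SLA-DQB1 (r = 0.90, rho = 0.82), SLA-DRB1 (r = 0.89, rho = 0.84) and SLA-DQA1 (r = 0.85, rho = 0.79). CD74, the invariant chain, had r = 0.76 and SLA-DMA 0.09, and neither was called. Without fetus 7, 5 probe sets were called, and without fetuses 3 and 14 none was, when the list median r was 0.78.

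Cell division genes all had positive correlations with their index gene. TOP2A, the topoisomerase of dividing cells, ranged from 8.64 over 9.58 to 10.26, with fetuses 12 and 10 high and fetuses 2 and 6 low. It called 89 probe sets positively (0.758%) and 8 negatively (0.0682%), and although only 4 of 22 other list genes passed limma, CENPF (r = 0.85), CCNB1 (r = 0.83), AURKA (r = 0.79) and HMGB2 (r = 0.74), all 22 had r above 0 with a median of 0.59 against -0.04 over all genes. MAD2L1 (r = 0.86), DEK (r = 0.86), PCLAF (r = 0.85) and TFRC (r = 0.86), the transferrin receptor, were called outside the list. Without fetuses 2 and 6, 2 probe sets were called and the list median was 0.62, and without fetus 7 there were 46. Metallothioneins, which bind zinc and copper, gave few calls. MT1A ranged from 14.22 over 15.38 to 15.83, lowest in fetuses 3 and 14, and called 2 probe sets positively (0.017%) and 2 negatively (0.017%), with MT-2B (r = 0.96, rho = 0.96, limma adjusted p = 2.0e-05) the only named gene. HAMP (r = 0.52) was not called. Without fetuses 3 and 14, 78 probe sets were called, and without fetus 7 there were 2.

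The acute phase gene HP, haptoglobin, and the lipogenic gene SCD, stearoyl-CoA desaturase, called the most probe sets, and both moved with the mean intensity of the array. HP ranged from 15.12 over 15.39 to 15.99, highest in fetuses 7 and 11. The mean intensity lay between 910 and 1123, highest in fetus 7, and its r with HP was 0.83 (rho = 0.87, adjusted permutation p = 0.0092 over 102 relations of index genes with technical measures, r = 0.72 without the 2 arrays farthest from the median). HP called 180 probe sets positively (1.53%) and 283 negatively (2.41%), with the ferritins FTL (r = 0.91) and FTH1 (r = 0.88) and the acute phase genes ITIH4 (r = 0.86), ORM1 (r = 0.79) and C3 (r = 0.73) positive. These were 3 of the 16 other acute phase genes, whose median r was 0.52 against 0.06 over all genes, and members without a call included LBP (r = 0.34), APCS (r = 0.33), LRG1 (r = 0.08) and STEAP4 (r = -0.37). After quantile normalization 0 were called, without fetus 7 there were 4, and without fetuses 7 and 11 there were 2. The part of the mean intensity in the result was not tested.

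SCD ranged from 14.46 over 14.96 to 15.27, lowest in fetuses 12 and 8. It called 132 probe sets positively (1.12%) and 55 negatively (0.469%), including DGAT2 (r = 0.84), LPIN1 (r = 0.75) and FASN (r = 0.71) of fat synthesis as positive and ACADM, an enzyme of fatty acid oxidation, as negative (r = -0.89, rho = -0.87). The called fat synthesis genes were 3 of the 16 others on the lipogenesis list, whose median r was 0.27 against 0.02 over all genes, and ELOVL6 (r = 0.28), FADS2 (r = 0.08), FADS1 (r = -0.04) and LPIN2 (r = -0.23) were among those without a call. Its r with the mean intensity was 0.74 (rho = 0.77, adjusted permutation p = 0.054 for r and 0.045 for rho, r = 0.81 without the 2 farthest arrays). After quantile normalization 1 probe set was called, without fetus 7 there were 371, and without fetuses 8 and 12 there were 0.

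For 7 index genes limma called no probe set, and with limma's eBayes run without trend and robust options none was called either. These were HMGCS1 for cholesterol synthesis, MX1 for the interferon response, ASNS for the amino acid response, IGFBP1 for hypoxia and glycolysis, HSP70.2 for heat shock, COL1A2 for extracellular matrix and TNNI2 for skeletal muscle. Unadjusted p-values below 0.05 numbered 463, 1017, 1511, 746, 693, 688 and 485 in that order, of 11736 probe sets tested (11734 for HSP70.2). A share of 0.05 passes on average without any relation. HMGCS1 and TNNI2 lay below that share, and MX1 and ASNS lay farthest above it. Their lists had median r values of 0.23, 0.43, 0.42, 0.31, 0.15, 0.25 and 0.08, against -0.02 to 0.02 over all genes. Among interferon genes ISG12(A) had the largest r with MX1 (r = 0.70, limma adjusted p = 0.30), and among amino acid response genes PYCR1 had the largest r with ASNS (r = 0.66, limma adjusted p = 0.26). Leaving out fetuses 6 and 7 gave 3 calls for MX1, leaving out fetuses 8 and 12 gave 1 for ASNS, and leaving out fetus 7 gave 1 for IGFBP1.

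Most transcripts differed less between fetuses than between the newborn piglets. Of 10782 probe sets above the array median at both stages, 8687 (80.6%) had the smaller SD at 94 dpc, and the median SD was 0.26 at 94 dpc against 0.35 at 1 dpn. Limma on the absolute deviations from the stage median called 33 probe sets narrower (0.306%) and 1 wider (0.00927%) in the fetuses. Cholesterol synthesis genes were among them, with 6 of 13 narrower, 13 of 13 having the smaller SD, and a median SD of 0.24 against 0.83. Over all 4726 genes tested, 17 were narrower, 3810 had the smaller SD, and the medians were 0.24 and 0.32. The 6 were SQLE, CYP51, MSMO1, FDPS, FDFT1 and ACAT2. FDPS, which makes farnesyl diphosphate, ranged from 12.29 over 12.64 to 12.84 in the fetuses and from 10.23 over 12.06 to 13.43 at 1 dpn, with SDs of 0.13 and 0.83 (limma adjusted p = 0.026). CYP51, a sterol demethylase, ranged from 13.08 over 13.20 to 13.75 and from 9.25 over 11.19 to 12.92 (SD 0.18 and 0.97, limma adjusted p = 0.026). SQLE, the squalene epoxidase, had SDs of 0.23 and 1.17 (limma adjusted p = 0.034). For FDPS the newborn values lay on both sides of the fetal ones, whereas all newborn values of CYP51 were below the lowest fetal value.

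Other genes narrower in the fetus than at 1 dpn included PEG10, an imprinted gene of fetal growth (SD 0.14 and 0.94), ISYNA1, which makes inositol (0.25 and 1.13), and PSAT1 of serine synthesis (0.16 and 0.62). Their levels differed too, with means at 94 dpc and 1 dpn of 15.30 and 13.07, 15.20 and 11.75, and 14.70 and 13.15. With the arrays centred on their medians the comparison with 1 dpn called 0 probe sets, and without the array of lowest correlation at each stage it called 22. The array medians lay between 133 and 166 at 1 dpn. The study's methods place the fetuses in an experiment of their own, with another way of killing, so stage and handling cannot be told apart.

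For 28 and 188 dpn the study's methods mention a night without feed before the animals were weighed and killed, whereas no fast is mentioned for the piglets of 1 dpn. Against 28 dpn limma called 7 probe sets narrower (0.0668%) and 3 wider (0.0286%) at 94 dpc, of 10480, and against 188 dpn 6 narrower (0.0582%) and 5 wider (0.0485%), of 10310. How these totals compared with that against 1 dpn turned with the processing, since median centring called 0 against 1 dpn, 7 against 28 dpn and 8 against 188 dpn, and no filter on low values called 1, 31 and 64. The narrower ones again held cholesterol synthesis genes, 3 of 13 against 28 dpn (CYP51, FDPS and ACAT2) and FDPS alone against 188 dpn. The 3 wider probe sets against 28 dpn were CYP2E1 and 2 without a symbol, and the 5 against 188 dpn were these 3 and both probe sets of GSTA1. GSTA1 and CYP2E1 had been picked for their large fetal SD, so nothing is read from these calls. GSTA1 had SDs of 2.02, 1.00, 0.30 and 0.16 and means of 11.38, 14.06, 15.17 and 15.59 at 94 dpc, 1 dpn, 28 dpn and 188 dpn. CYP2E1 had SDs of 1.59, 0.49, 0.12 and 0.21 and means of 8.93, 14.52, 15.06 and 15.44. In both genes the lowest pig of 28 dpn was above the highest fetus. No immediate early gene was called in any of the 3 comparisons. The median SD over the list was 0.67 in the fetuses against 0.52 at 1 dpn. It was 0.68 against 0.35 at 28 dpn and 0.68 against 0.44 at 188 dpn. The smaller SD was the fetal one in 8 of 21, 5 of 22 and 7 of 22 genes, in the order of the stages.

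**Figure D5:**
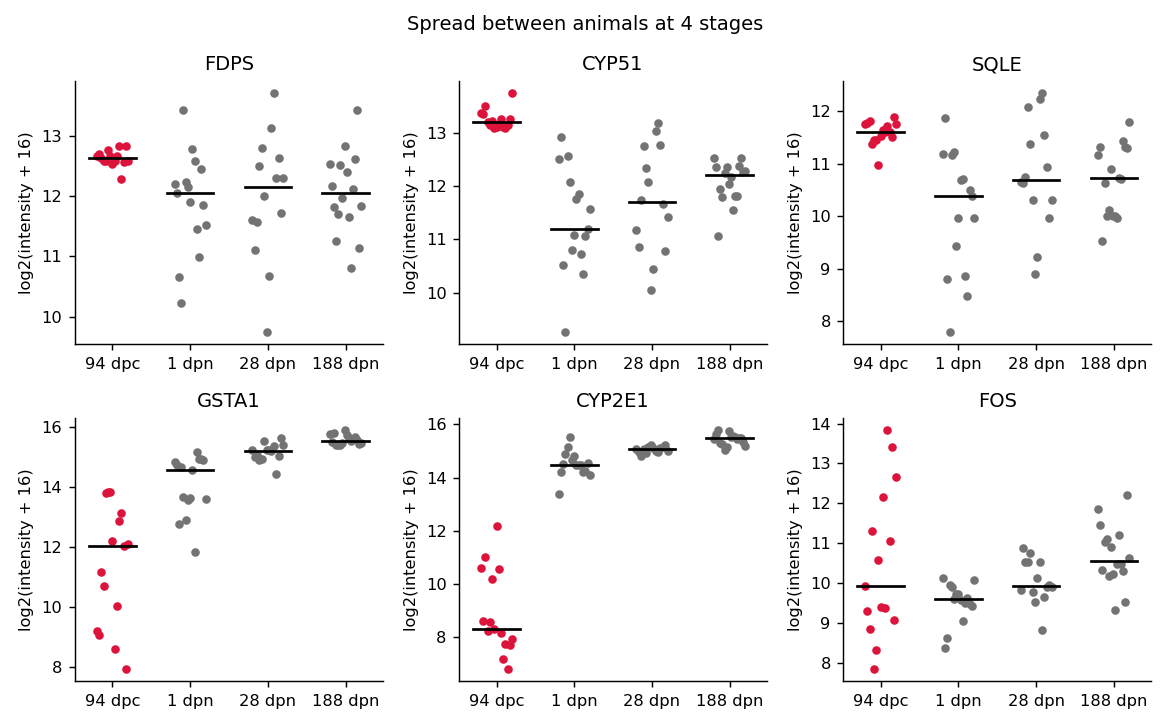
Log2(intensity + 16) of 6 genes in every animal at 94 dpc (red, n = 15), 1 dpn (n = 15), 28 dpn (n = 14) and 188 dpn (n = 16); each point is an animal and each black bar a median. FDPS, CYP51 and SQLE are narrow in the fetuses (SD 0.13, 0.18 and 0.23), and GSTA1, CYP2E1 and FOS are wide (SD 2.02, 1.59 and 1.87).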

How the data were processed

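Affymetrix GeneChip Porcine Genome arrays of liver RNA were available for 60 pigs, and animals were grouped by the ontogenetic stage in the labels. The values that the authors deposited are linear intensity signals, scaled so that the mean of an array after trimming 2% at each end is close to 500. The submitters' processing notes name GCOS 1.1.1. They are not the GCRMA values of the study's own tests, and the study's mixed model with sex, mother and weight could not be fitted, since the labels give none of these.

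All values were analysed as log2(intensity + 16). Of 24123 probe sets, 124 controls were left out. Kept were 11737 probe sets whose mean over the fetuses exceeded the mean of the array medians. Symbols came from the annotation given with the series (1 symbol for 6390 of these probe sets, 4915 genes), with the brightest probe set standing for a gene. Of 10099 probe sets with 1 symbol, controls included, 9989 had a gene ID found in RefSeq for Sscrofa11.1 and 0 symbols changed.

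Clusters were formed by average linkage on 1 - r and divided at a mean r of 0.6. Co-variation was fitted with limma 3.58.1 in R 4.3.3 (eBayes with trend and robust, Benjamini-Hochberg per index gene, probe sets of the index gene left out), and the scripts were tested on simulated data. Named pairs have two-sided permutation p-values from 100000 resamples (smallest possible 1e-05), and r again without the 2 fetuses farthest from the index median. Absolute deviations, multiplied by sqrt(n/(n-1)), were compared between stages with limma. The animals are separate samples, the number of arrays limits the precision, and read depth has no counterpart on arrays.

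Named genes are the 20 brightest, the 30 with the largest SD, the index genes with up to 6 called genes each, up to 5 list members by SD and 5 by r, list members called, members of clusters, and markers. Second probe sets, genes called for unequal spread, and the list medians of r without 2 fetuses were added after the values were seen. The gene lists and members were chosen with earlier results of these data known. Alternatives were another added number, quantile or median normalization, no filter, omitted arrays, technical covariates, ranks, other moderation, other adjustment and another measure of spread.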

Additional observations from a re-analysis of the deposited data

How the results depend on the processing

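No paired analysis was possible because different animals were sampled at each stage and the labels give no litter. Of 238 recomputed counts, 158 stayed within 1.5 times the reported one. Counts of 0 that stayed at 0 are among these 158, as in most alternatives of the index genes without a call. The total therefore says little about the stability of the other counts. For the named pairs 616 of 814 recomputed r values kept their side of the threshold, 198 lost it and 0 reversed. The alternatives differed widely in this. All 74 called pairs kept their call with 1 or 64 added. Without the 2 fetuses farthest from the index median, 67 lost it and 7 kept it. All 150 recomputed SDs of named genes moved little. Of 231 recomputed spreads of named genes 171 kept their call and 60 lost it. Under median centring alone 23 lost it and 10 kept it, and the same numbers held with no filter. The counts that moved follow, as numbers of probe sets called, and the cause was not tested.

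Without the 2 fetuses farthest from the index median, FOS called 2, AHSP 2, NPG4 0, HP 2, SCD 0, MX1 3, SLA-DRA 0, ASNS 1, PCK1 9, MT1A 78 and TOP2A 2. Without the array of lowest correlation, NPG4 called 3, HP 4, SCD 371, SLA-DRA 5, IGFBP1 1, MT1A 2 and TOP2A 46, and the comparison of spread with 1 dpn called 22. With ranks of the index gene, FOS called 22, AHSP 13, NPG4 1, SCD 99, SLA-DRA 3, PCK1 21 and MT1A 2. With the actin ratio as covariate, AHSP called 50, NPG4 3, SLA-DRA 4 and TOP2A 40. With the array median as covariate, AHSP called 57, NPG4 0, SCD 297, MT1A 2 and TOP2A 232. With p-values adjusted over all index genes together, AHSP called 55, NPG4 12, HP 80, SCD 35, MX1 1, ASNS 2, IGFBP1 2, TOP2A 33 and COL1A2 1. With eBayes without trend and robust options, NPG4 called 0, HP 247, SCD 1, MT1A 2 and TOP2A 52.

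After quantile normalization, HP called 0, SCD 1, MT1A 2 and TOP2A 38, and the spread comparisons with 1, 28 and 188 dpn called 59, 34 and 37. After median centring, HP called 306, SCD 100, SLA-DRA 5, MT1A 2 and TOP2A 57, and the comparison with 1 dpn called 0. With no filter on low values, 291 probe sets had an SD of at least 1, 43 of the 100 most variable were retained, NPG4 called 3, HP 218, SCD 83, MT1A 2 and TOP2A 40, and the spread comparisons called 1, 31 and 64. With 64 added instead of 16 these comparisons called 72, 16 and 32, and with log squared deviations 233, 143 and 207. With 1 added, MT1A called 2. Clustering 200 probe sets gave 13 groups.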
